A study of Mus musculus with 6 samples.

Results

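The integrins, selectins and Ig-type adhesion molecules of bone marrow were described in mice whose marrow had been rebuilt from cells carrying Meis1 and either of 2 forms of HoxA9. The set was a list of 39 genes, 27 integrin chains and 12 other adhesion genes, and a gene was taken where a probe set carried its symbol and no other. That held for 38 genes of the 19938 genes measured in this way. Selp was not analysed here.

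Each of 6 mice gave 1 Affymetrix gene array of total RNA from bone marrow cells, harvested at disease onset. Recipients were CD45.1+ mice after lethal irradiation, and the donor cells were CD45.2+ LSK cells, the fraction of marrow that holds stem and early progenitor cells. All donor cells had been transduced with Meis1. In 3 mice they also carried HoxA9wt-GFP (HoxA9wt/Meis1), and in 3 mice HoxA9AA-GFP (HoxA9AA/Meis1), so that the groups share Meis1 and differ in the form of HoxA9. Age and strain are not given in the labels, no sort of the harvested marrow is named, and the samples may hold recipient cells beside donor cells. The question was which adhesion genes differ between the 2 kinds of diseased marrow.

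Integrins are surface receptors made of 1 alpha and 1 beta chain, and the pair decides what the cell can bind. Blood cells use those with the Itgb2 chain to bind ICAM molecules on other cells, and the pair of Itga4 with Itgb1 to bind Vcam1 on marrow stroma and vessels. Selectins start the contact with vessel walls by binding sugars on proteins such as Selplg, while Pecam1 and the junction molecules sit where endothelial cells meet and also on platelets and many leukocytes.

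The values are log2 expression levels, so that 1 unit stands for a 2-fold change in signal. Differences are given as HoxA9AA/Meis1 minus HoxA9wt/Meis1, with the SE or the 95% confidence interval of the limma fit over all genes, and arrays are named by group and replicate in the order 1, 2, 3. A gene was called above background on an array where it exceeded the 95th percentile of 1027 olfactory receptor genes on that array, which lay between 6.52 and 6.72. By this measure 24 of the 38 adhesion genes (63.2%) were above background on at least 3 arrays, against 59.4% of all genes. Hoxa9 measured 7.89 to 9.07 and Meis1 8.50 to 10.58 over the 6 arrays, and the pan-leukocyte gene Ptprc 11.14 to 11.99. HoxA9AA replicate 2 resembled the HoxA9wt arrays (Pearson's r across genes 0.989 to 0.991) more than HoxA9AA replicates 1 (0.958 to 0.966) and 3 (0.968 to 0.970) did. Among the HoxA9wt arrays themselves r was 0.987 to 0.990, so by this measure HoxA9AA replicate 2 was as close to them as they were to one another.

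The beta3 integrin chain Itgb3, the adhesion ligand Icam2 and the endothelial and leukocyte molecule Pecam1 were higher in all 3 HoxA9AA/Meis1 mice than in any HoxA9wt/Meis1 mouse, and so was Vcam1. The alpha4 chain Itga4 had the clearest difference the other way. None of these differences passed the test over all genes. Of 19938 genes, 0 had an adjusted p under 0.05 (limma with Benjamini-Hochberg adjustment, smallest adjusted p 0.731). This is 0% of the genes tested, and 48 genes passed without HoxA9AA replicate 2. An unadjusted p under 0.05 was found for 1344 genes, or 6.74%. Of the 38 adhesion genes 4 had one (10.5%), namely Itgb3, Icam2, Pecam1 and Itga4. The 3 higher genes are 7.89% of the 38, against 4.15% of all genes, and the 1 lower gene is 2.63%, against 2.59%. The median difference was 0.05 over the 38 genes and 0.01 over all genes, and 23 of the 38 (60.5%) had a higher mean in HoxA9AA/Meis1, against 52.7% of all genes. Without HoxA9wt replicate 1 this count was 19 of 38, and without HoxA9AA replicate 2 it was 20.

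**Figure D1:**
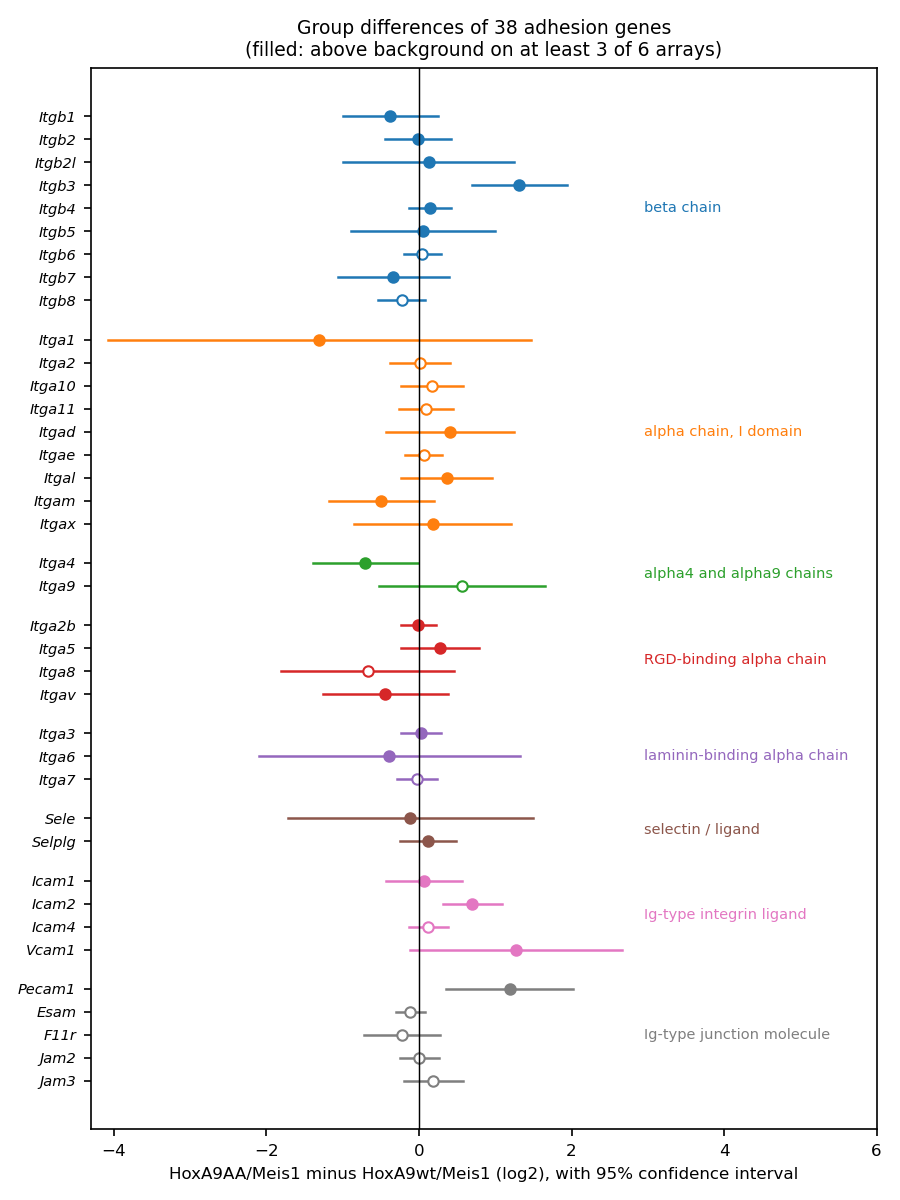
Difference HoxA9AA/Meis1 minus HoxA9wt/Meis1 (log2, horizontal axis) of 38 adhesion genes with its 95% confidence interval from limma (n = 3 mice in each group), coloured by chain or class; filled symbols are genes above background on at least 3 of 6 arrays. The intervals of Itgb3 (0.69 to 1.94), Icam2 (0.31 to 1.08) and Pecam1 (0.36 to 2.02) lie above 0, that of Itga4 (−1.39 to −0.01) just below it, and the widest is that of Itga1 (−4.08 to 1.46).

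Among the beta chains, which carry the cytoplasmic tail that talin and kindlins bind, Itgb3 alone had its groups apart. Itgb3 measured 8.19, 7.55 and 7.35 in the HoxA9wt/Meis1 mice and 9.33, 8.67 and 9.03 in the HoxA9AA/Meis1 mice. All 3 HoxA9AA/Meis1 mice were high, replicate 2 included, with a gap of 0.48 between the lowest of them and the highest HoxA9wt/Meis1 mouse. The means were 7.70 ± 0.44 and 9.01 ± 0.33 (SD, n = 3), a difference of 1.31 ± 0.26 (SE) with an unadjusted p of 0.00183 and an adjusted p of 0.731 (limma). Leaving out any 1 array left the difference between 1.14 and 1.56.

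The alpha partners of Itgb3 had no such pattern. Itga2b, with which Itgb3 forms the fibrinogen receptor of platelets, measured 7.01, 7.18 and 7.19 in HoxA9wt/Meis1 and 7.21, 7.04 and 7.10 in HoxA9AA/Meis1. Its groups overlapped, and the difference was −0.01 (interval −0.24 to 0.22). Its sign turned under another scaling of the arrays (0.015 after median centring). Itgav, with which Itgb3 forms a receptor for vitronectin and other RGD-containing proteins, measured 10.24, 9.43 and 9.47 in HoxA9wt/Meis1 and 8.62, 9.72 and 9.47 in HoxA9AA/Meis1. Only HoxA9AA replicate 1 stood below all HoxA9wt/Meis1 mice, and the difference was −0.44 (interval −1.26 to 0.38). Of 16 measured markers of megakaryocytes and platelets, the main carriers of the Itgb3 and Itga2b pair, 9 were above background on all 6 arrays, and Gata1, Mmrn1, Rab27b and Slc35d3 on none. Their mean level lay between 6.76 and 7.23 in HoxA9wt/Meis1 and between 6.83 and 6.97 in HoxA9AA/Meis1. Of the 16, 6 (37.5%) had a higher mean in HoxA9AA/Meis1, against 52.7% of all genes, 9 had a lower mean and 1 an equal one. At an unadjusted p under 0.05 (limma) there were 2 higher (12.5%, against 4.15% of all genes) and 1 lower (6.25%, against 2.59%). Single markers differed in both directions. Nbeal2, a gene of platelet granules, measured 7.80, 7.67 and 7.70 against 8.51, 7.93 and 8.35, and the thrombin receptor gene F2rl2 measured 7.49, 7.76 and 7.26 against 8.03, 7.84 and 8.30, both higher in all HoxA9AA/Meis1 mice as Itgb3 was (unadjusted p 0.0124 and 0.0160, adjusted p 0.731, limma). The platelet chemokine gene Pf4, above background on 2 arrays, and Thbd, a gene on chromosome 2, differed by −0.68 each. Ppbp differed by −0.57 and Nfe2 by 0.36, while Gp9, Gp5 and Tubb1 differed by −0.10, 0.01 and −0.03. The part of such cells in the Itgb3 values was not tested. Osteoclasts, which also carry Itgb3 with Itgav, were followed by 7 markers, whose mean level was 6.71 to 6.95 and 6.68 to 6.75, with Calcr and Dcstamp above background on no array.

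The leukocyte beta chain Itgb2 did not separate the groups. Itgb2 measured 10.12, 9.63 and 9.53 in HoxA9wt/Meis1 and 9.56, 9.77 and 9.91 in HoxA9AA/Meis1, which overlap throughout. The difference was −0.01 (interval −0.45 to 0.42), and it was 0.03 after a further quantile normalization and 0.01 after median centring. Itgb1, the partner of many alpha chains, measured 10.76, 10.32 and 10.52 against 9.64, 10.21 and 10.63. The low value was that of HoxA9AA replicate 1, and the difference was −0.37 (interval −0.99 to 0.24). Itgb7, which pairs with Itga4 and Itgae on lymphocytes and other leukocytes, measured 8.62, 8.24 and 8.25 against 7.33, 8.34 and 8.43. Again HoxA9AA replicate 1 was the low mouse, and without it the difference of −0.34 became 0.015.

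Itgb2l encodes an Itgb2-like protein of maturing neutrophils. It measured 7.39, 7.91 and 6.80 in HoxA9wt/Meis1 and 7.81, 8.14 and 6.53 in HoxA9AA/Meis1. Replicate 3 of each group was the low mouse, and the groups overlapped (difference 0.13, interval −0.99 to 1.25). The 15 measured genes of neutrophil maturation, as a mean relative to their HoxA9wt level, stood at 0.47, 0.99 and −1.46 in HoxA9wt/Meis1 and at 0.96, 1.12 and −0.23 in HoxA9AA/Meis1. They too were lowest in replicate 3 of each group and highest in HoxA9AA replicate 2. The part of these markers in the Itgb2l values was not tested. The remaining beta chains Itgb4, Itgb5, Itgb6 and Itgb8 had differences between −0.23 and 0.14. Itgb6 and Itgb8, which activate TGF-beta in epithelia and other tissues, were not above background on any array, and Itgb5 was above it on all 6.

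The alpha chains with an inserted domain include those that pair with Itgb2. Itgal, the alpha chain of LFA-1, measured 9.46, 9.04 and 9.23 in HoxA9wt/Meis1 and 9.30, 9.37 and 10.16 in HoxA9AA/Meis1. HoxA9AA replicate 3 alone was above the HoxA9wt/Meis1 mice (difference 0.37, interval −0.23 to 0.96). Itgam, the alpha chain of Mac-1 on neutrophils and monocytes, measured 11.45, 11.01 and 10.76 against 10.01, 10.76 and 10.96. It was lowest in HoxA9AA replicate 1, and the groups overlapped (difference −0.50, interval −1.18 to 0.19). Itgax, a chain of dendritic cells and macrophages, measured 6.68, 6.16 and 7.28 against 6.26, 6.70 and 7.71, with replicate 3 the highest of each group and a difference of 0.18. For Itgad, the Itgb2 partner of tissue macrophages, 5 arrays stood between 6.49 and 6.68, and HoxA9AA replicate 3 measured 7.87. A second, dimmer probe set of Itgad measured 5.94 to 6.38 on all 6 arrays and did not show this. Itgal, Itgax and Itgad thus had their highest value in HoxA9AA replicate 3, and Itgam and Itgb2 did not.

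Of the collagen-binding alpha chains, Itga1 was high in all mice but 1. It measured 10.65, 10.14 and 10.03 in HoxA9wt/Meis1, 10.32 and 10.52 in HoxA9AA replicates 1 and 2, and 6.06, below background, in HoxA9AA replicate 3. The group difference of −1.31 (interval −4.08 to 1.46) rests on that mouse, and without it the difference was 0.15. Itga2, Itga10 and Itga11 were above background on 2 arrays each, and Itgae, the chain of epithelial lymphocytes, on none. These 4 genes had differences between 0.01 and 0.17.

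**Figure D2:**
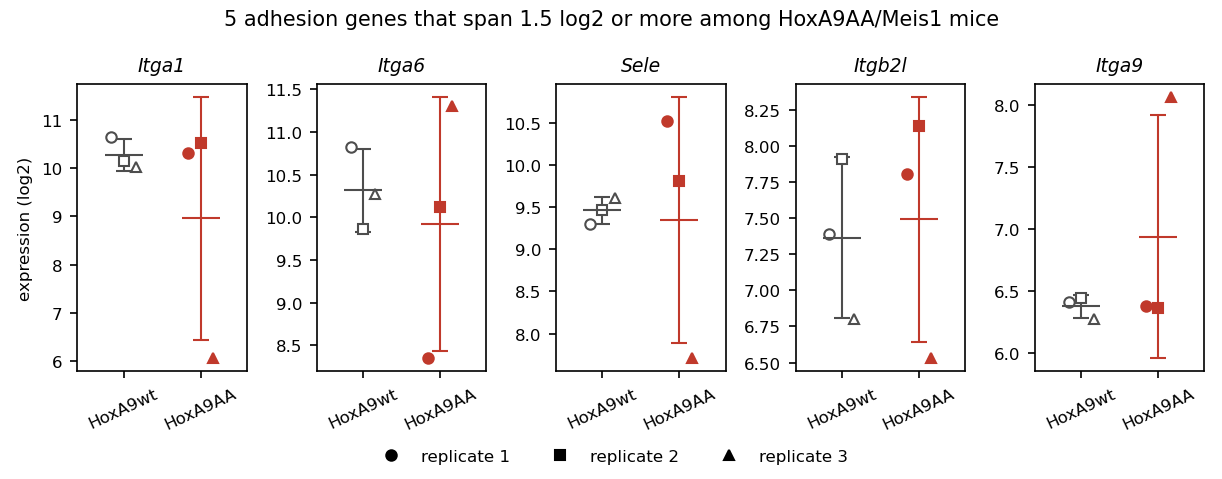
Expression (log2, vertical axis, its own scale in each panel) of the adhesion genes Itga1, Itga6, Sele, Itgb2l and Itga9 in single mice, with symbols for replicates and bars for the group mean ± SD (n = 3). The HoxA9AA/Meis1 mice span 4.46 for Itga1, 2.96 for Itga6, 2.81 for Sele, 1.61 for Itgb2l and 1.71 for Itga9, and a different mouse can be the extreme one, with Itga6 lowest in replicate 1 and Itga1 in replicate 3.

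Itga4, the alpha chain of the Vcam1 receptor that holds progenitor cells in marrow, had a lower mean in HoxA9AA/Meis1. It measured 11.86, 11.31 and 11.51 in HoxA9wt/Meis1 and 10.29, 11.38 and 10.90 in HoxA9AA/Meis1. HoxA9AA replicates 1 and 3 were below all HoxA9wt/Meis1 mice, and replicate 2 was within their range. The means were 11.56 ± 0.28 and 10.86 ± 0.55 (SD, n = 3), a difference of −0.70 ± 0.29 (SE) with an unadjusted p of 0.0470 and an adjusted p of 0.731 (limma). Without HoxA9AA replicate 1 the difference was −0.42 with an unadjusted p of 0.103. The unadjusted p was 0.00875 without HoxA9AA replicate 2 and between 0.0504 and 0.146 without any other array. Monocyte and macrophage genes, of which 14 of 17 measured were above background on all arrays, stood at −0.99, −0.0035 and −0.60 relative to their HoxA9wt level in HoxA9AA replicates 1, 2 and 3, and between −0.28 and 0.23 in HoxA9wt/Meis1. Itga4 followed this order at −1.27, −0.18 and −0.66, and the part of these cells in its values was not tested. In RNA of whole marrow, fewer cells of a type and less RNA per cell cannot be told apart. Itga9, the chain most like Itga4, stood between 6.27 and 6.44 on 5 arrays and at 8.07 in HoxA9AA replicate 3.

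Of the chains that bind RGD sequences, Itga5, the fibronectin receptor chain, measured 8.20, 8.06 and 8.15 against 8.29, 8.05 and 8.89. HoxA9AA replicate 3 was the high mouse (difference 0.27, interval −0.24 to 0.78). Itga8, a chain of mesenchymal cells, was above background on 1 array, HoxA9wt replicate 1, where it measured 7.92, against 5.87 to 6.31 on the others. Of the laminin-binding chains, Itga6, a surface marker of stem and progenitor cells and of platelets, measured 10.82, 9.86 and 10.27 in HoxA9wt/Meis1 and 8.35, 10.12 and 11.31 in HoxA9AA/Meis1. HoxA9AA replicate 1 was the lowest of the 6 mice and HoxA9AA replicate 3 the highest, and the difference of the means was −0.39 (interval −2.10 to 1.32). Itga3 and Itga7 differed by 0.02 and −0.03 and lay close to background.

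The endothelial selectin gene Sele was above background in every mouse. It measured 9.30, 9.47 and 9.61 in HoxA9wt/Meis1 and 10.52, 9.81 and 7.71 in HoxA9AA/Meis1. HoxA9AA replicates 1 and 2 were above all HoxA9wt/Meis1 mice and replicate 3 was below them (difference −0.11, interval −1.722 to 1.496). Without HoxA9AA replicate 3 the difference was 0.705 with an unadjusted p of 0.0221. Of 13 endothelial markers, 5 (Emcn, Kdr, Mmrn2, Robo4 and Tek) were above background on no array, and the mean level of the 13 lay between 6.29 and 6.61 over the 6 mice. The selectin ligand Selplg measured 10.27, 10.08 and 10.10 against 10.55, 10.26 and 10, which overlap (difference 0.12, interval −0.25 to 0.49). Of 10 enzymes that build the sugars of selectin ligands, 1 (10%, against 6.74% of all genes) had an unadjusted p under 0.05, the chaperone gene C1galt1c1 of O-glycan synthesis (difference −0.90 ± 0.33, SE, adjusted p = 0.731, limma). The fucosyltransferase gene Fut7 differed by 0.16, and St3gal6, Gcnt1 and Fut4 by −0.24, −0.25 and 0.23.

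Of the Ig-type ligands of integrins, Icam2, a ligand of LFA-1 on endothelium, platelets and leukocytes, separated the groups. Icam2 measured 7.28, 7.43 and 7.30 in HoxA9wt/Meis1 and 8.27, 7.69 and 8.14 in HoxA9AA/Meis1. HoxA9AA replicate 2 was again the nearest to the HoxA9wt/Meis1 mice, 0.26 above the highest of them. The means were 7.34 ± 0.08 and 8.03 ± 0.30 (SD, n = 3), a difference of 0.70 ± 0.16 (SE), or 1.62-fold, with an unadjusted p of 0.00410 and an adjusted p of 0.731 (limma). It lay between 0.58 and 0.87 when any 1 array was left out. Its relative Icam1 measured 7.58, 7.66 and 7.79 against 7.53, 7.47 and 8.22, with HoxA9AA replicate 3 the high mouse (difference 0.06, interval −0.44 to 0.56), and Icam4, a red cell adhesion molecule, differed by 0.12 near background. The 13 endothelial markers had a mean level of 6.29 to 6.41 in HoxA9wt/Meis1 and of 6.37 to 6.61 in HoxA9AA/Meis1, and their part in the Icam2 and Pecam1 values was not tested.

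Vcam1 measured 8.85, 8.48 and 8.56 in HoxA9wt/Meis1 and 11.35, 9.12 and 9.25 in HoxA9AA/Meis1. All 3 HoxA9AA/Meis1 mice were above the HoxA9wt/Meis1 mice, by 0.27 at the nearest, and HoxA9AA replicate 1 stood far above the rest. The difference was 1.28 ± 0.58 (SE) with an unadjusted p of 0.0661 and an adjusted p of 0.731 (limma), and without HoxA9AA replicate 1 it was 0.555 with an unadjusted p of 0.00778. The 13 endothelial markers as a mean stood at 0.24, 0.02 and 0.01 relative to their HoxA9wt level in the HoxA9AA/Meis1 mice. Much of the 0.24 in HoxA9AA replicate 1 came from Flt1, which stood at 1.97 there, and the mean of the other 12 was 0.0958. In that mouse 10 of the 13 were above their HoxA9wt mean and 3 (Tek, Cdh5 and Emcn) below it, and the part of such cells in the Vcam1 values was not tested. Stromal and bone markers, 13 measured and 5 of them on no array above background, stood at 0.19, 0.09 and 0.03. Vcam1 was also listed among the monocyte and macrophage genes, whose score was taken without it. The 17 others measured stood at −0.99, −0.0035 and −0.60, and their part in the Vcam1 values was not tested either.

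Pecam1, which joins endothelial cells and is carried by platelets, monocytes and progenitors, measured 9.84, 8.96 and 9.32 in HoxA9wt/Meis1 and 10.88, 9.87 and 10.94 in HoxA9AA/Meis1. HoxA9AA replicates 1 and 3 were high, and replicate 2 was 0.03 above HoxA9wt replicate 1. The means were 9.37 ± 0.44 and 10.56 ± 0.60 (SD, n = 3), a difference of 1.19 ± 0.35 (SE), or 2.28-fold, with an unadjusted p of 0.0122 and an adjusted p of 0.731 (limma). It stayed between 0.98 and 1.54 when any 1 array was left out. Stem and progenitor markers stood at 0.23, −0.03 and 0.58 relative to their HoxA9wt level in the HoxA9AA/Meis1 mice and at −0.18 to 0.09 in HoxA9wt/Meis1. This list holds Meis1, introduced into all donor cells, and Flt3, which measured 6.92 in HoxA9AA replicate 1 and at least 9.87 elsewhere. Genes of primary granules stood at 1.53, −0.02 and 0.52 and at −0.34 to 0.30. Monocyte and macrophage genes stood at −0.99, −0.0035 and −0.60 and at −0.28 to 0.23. Markers of megakaryocytes and platelets stood at 0.02, −0.05 and −0.11 and at −0.18 to 0.28. The part of any of these cells in the Pecam1 values was not tested. The junction molecules Esam, Jam2 and Jam3 were above background on no array. F11r measured 6.40, 7.02 and 6.55 against 6.24, 6.75 and 6.30, above background in replicate 2 of each group (difference −0.23, interval −0.72 to 0.27).

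**Figure D3:**
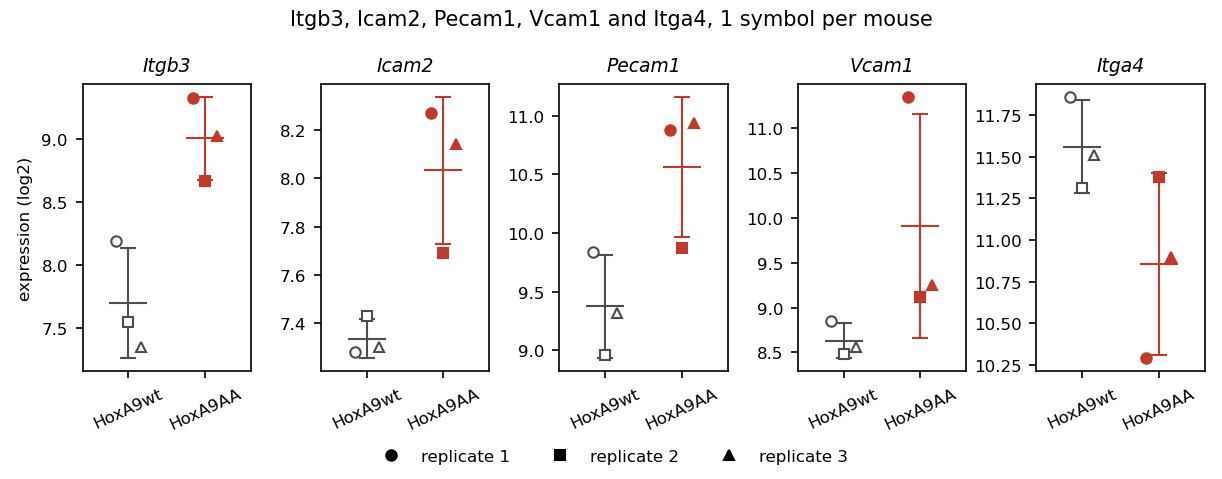
Expression (log2, vertical axis, its own scale in each panel) of Itgb3, Icam2, Pecam1, Vcam1 and Itga4 in single mice, with symbols for replicates and bars for the group mean ± SD (n = 3). The groups do not overlap for Itgb3, Icam2, Pecam1 and Vcam1, where the nearest mice are 0.48, 0.26, 0.03 and 0.27 apart, and they overlap for Itga4 through HoxA9AA replicate 2 at 11.38.

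Groups that did not overlap were thus seen for 5 of the 38 genes (13.2%), against 11.4% of all genes. The 4 higher genes are 10.5% of the 38, against 6.6% of all genes, and the 1 lower gene is 2.63%, against 4.8%. A gap of 0.1 or more was seen for 3 genes (7.89%), Itgb3, Icam2 and Vcam1, against 3.91% of all genes. The lower gene was Esam, which lay below background throughout and differed by −0.11. The spread among mice was larger in HoxA9AA/Meis1 than in HoxA9wt/Meis1 for 27 of the 38 genes (71.1%), against 70.7% of all genes, a share near that of all genes. The HoxA9AA/Meis1 mice spanned 1.5 or more for 6 of the 38 genes (15.8%), namely Itga1, Itga6, Sele, Vcam1, Itga9 and Itgb2l, against 3% of all genes. In HoxA9wt/Meis1 such a span was seen for Itga8 (2.63%), against 0.772% of all genes.

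The genes at which the results turn were placed by the gene order of a RefSeq table of assembly GRCm38.p6. Itgb3, Icam2 and Pecam1 are on chromosome 11, which holds more members than any other, and Vcam1 is on chromosome 3. Itga4, Itgav and Itga6 are on chromosome 2, and each was lower in HoxA9AA replicate 1 than in any other mouse. For every member the 10 measured genes on each side with a mean of at least 6.81 were taken, where the chromosome had them, members left out. In HoxA9AA replicate 1 the median of these neighbours relative to their HoxA9wt mean was −0.93 for Itga4, −0.92 for Itga6 and −0.88 for Itgav, with 19, 19 and 18 of 20 neighbours lower. Itga4, Itga6 and Itgav themselves stood at −1.27, −1.97 and −1.09 there. In HoxA9AA replicates 2 and 3 these medians lay between −0.11 and 0.125, and for the 21 other members above background the medians in replicate 1 lay between −0.41 and 0.24. Itga8 and Itgb6 are also on chromosome 2 and were above background on 1 array at most. Around them the medians in replicate 1 were −0.105 and −0.0983, with 14 and 12 of 20 neighbours lower, so the low medians were not shared by all members of the chromosome. The low values of these 3 alpha chains in HoxA9AA replicate 1 were shared by the genes around them, and that of Itga4 in HoxA9AA replicate 3 (−0.66) was not. Low values in HoxA9AA replicate 1 were also seen off chromosome 2 without low neighbours. Itgam, Itgb7, Itgb1 and Itgb5 stood at −1.06, −1.04, −0.89 and −0.83 there, with neighbour medians of 0.13, 0.13, 0.02 and 0.005. The part of the region in the values of the 3 alpha chains was not tested.

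Itgb3, Icam2 and Pecam1 are 3 of 7 members on chromosome 11. Icam2 and Pecam1 are near neighbours with 3 measured genes between them, and 24 measured genes lie between Itgb3 and Icam2. Of the genes between Icam2 and Pecam1, the stress sensor Ern1 measured 9.35, 8.68 and 9.02 in HoxA9wt/Meis1 and 10.08, 9.42 and 9.83 in HoxA9AA/Meis1 (difference 0.76 ± 0.23, SE, adjusted p = 0.731, limma), again without overlap, while Tex2 differed by 0.15 and Snord104 by 0.27. The median of the neighbours stood at −0.16, 0.005 and 0.22 in HoxA9AA replicates 1, 2 and 3 for Icam2, at −0.41, 0.00 and 0.20 for Pecam1 and at 0.065, −0.04 and 0.03 for Itgb3. Of 20 neighbours, 3 of Icam2 (15%) and 4 of Pecam1 (20%) had a higher mean in HoxA9AA/Meis1 with an unadjusted p under 0.05 (limma), against 4.15% of all genes, and 0 had a lower one. Such shares were not particular to this region. They were 20% around Itgam and Itga10 and 15% around Itgal, and 0% around Itgb7 and Itgav. Neighbours also had a mean of at least 6.81, while the 4.15% covers genes of any level. Icam2 and Pecam1 share neighbours, Ern1 among them. For Itgb3 the count was 1 of 20 (5%). The neighbours of Vcam1, on chromosome 3, stood at −0.16, −0.03 and −0.14. Of 20 there, 1 was higher (5%, against 4.15% of all genes) and 3 were lower (15%, against 2.59%) at that threshold. A part of the region in the values of these 4 genes was not tested.

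**Figure D4:**
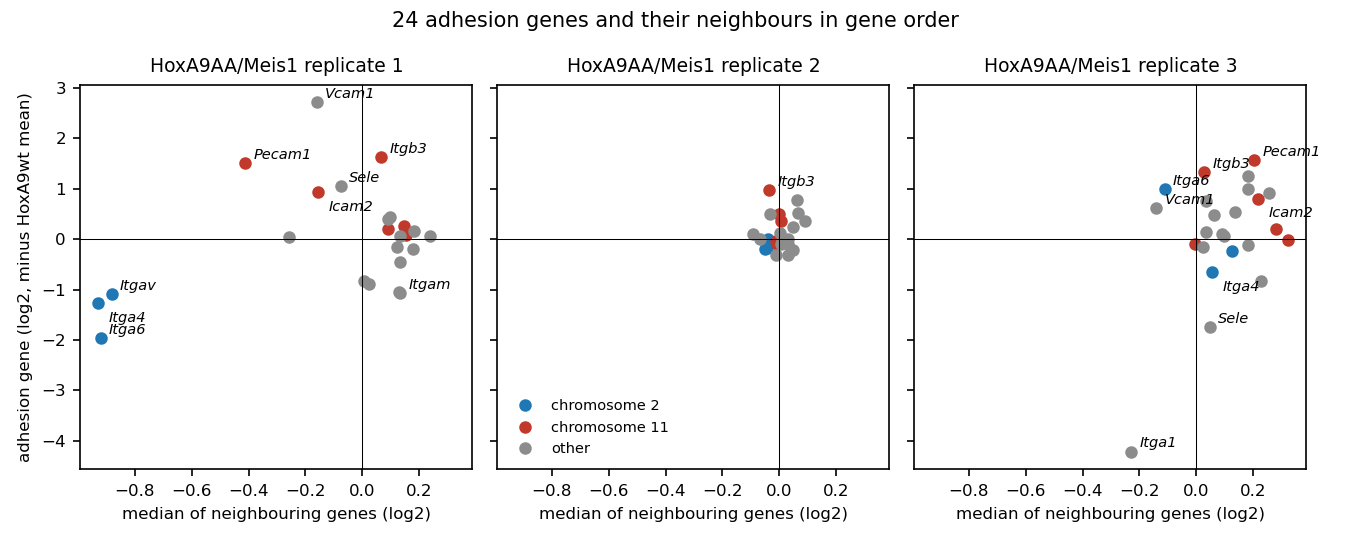
For each HoxA9AA/Meis1 mouse, the level of 24 adhesion genes above background minus their HoxA9wt mean (log2, vertical axis) against the median of the same difference over up to 20 neighbouring genes (log2, horizontal axis), coloured by chromosome. In replicate 1 the chromosome 2 genes Itga4, Itga6 and Itgav lie at the lower left with neighbour medians of −0.93, −0.92 and −0.88, and in replicates 2 and 3 they do not.

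The proteins that bind integrin tails and set their activity had small differences on balance. Of 36 measured genes 20 had a higher mean and 16 a lower mean in HoxA9AA/Meis1, with a median difference of 0.08. The higher genes are 55.6% of the 36, against 52.7% of all genes. An unadjusted p under 0.05 was found for 4 higher (11.1%, against 4.15% of all genes) and 1 lower gene (2.78%, against 2.59%), and 0 of the 36 passed over all genes (limma, adjusted p = 0.731 for each of the 5). Rasgrp2, the exchange factor that switches on Rap1 in platelets and leukocytes, differed by 0.71 ± 0.27 (SE), the actin regulator Vasp by 0.55 ± 0.18 and the tensin gene Tns3 by 0.45 ± 0.15. Ilk, the integrin-linked kinase, was the other higher gene. Apbb1ip, also on chromosome 2, the adaptor that brings talin to Rap1, differed by −0.34 ± 0.13. Of the matrix and plasma ligands of integrins, 7 of 19 measured had a higher mean (36.8%, against 52.7% of all genes) and 12 a lower one. Only 10 of the 19 were above background on at least 3 arrays. The 2 with an unadjusted p under 0.05 (10.5%, against 2.59% of all genes, limma) were lower. Thbs1, thrombospondin 1, a gene on chromosome 2 whose product binds Itgb3 integrins among other receptors, measured 8.19, 8.69 and 9.32 in HoxA9wt/Meis1 and 7.02, 7.26 and 7.10 in HoxA9AA/Meis1. Its groups were 0.93 apart, and the difference was −1.61 ± 0.27 (SE, adjusted p = 0.731, limma). Fn1, fibronectin, a ligand of Itga5 and Itga4 with Itgb1, measured 12.49, 12.90 and 12.77 against 9.58, 12.53 and 7.54, with HoxA9AA replicate 2 close to the HoxA9wt/Meis1 mice and replicates 1 and 3 far below (difference −2.84 ± 1.14, SE).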

How the data were processed

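Gene expression was measured in bone marrow RNA of 6 mice on 1-colour Affymetrix gene arrays. The deposited log2 values were made by the authors with the R package oligo and RMA, per the submitters' processing notes, which corrects background, normalizes by quantiles and summarises probe sets; the sources used here give no versions. Arrays carry no counts, and 3 mice in each group limit the precision.

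Of 35556 probe sets, 21789 had 1 symbol in the platform annotation, 1621 with several symbols and 12146 without an entry stayed out. The brightest probe set was used for the 999 genes with more than 1, which left 19938 genes. The 2 groups entered a limma fit (version 3.58.1, R 4.3.3, eBayes, two-sided, no block), adjusted over all genes with a threshold of 0.05. The fit was also run on simulated arrays with independent normal values and the same spread in both groups. The larger spread in HoxA9AA/Meis1 (70.7% of all genes) was not simulated, so that run does not show how the fit behaves under it. Members and gene lists were chosen with earlier results of these data known, so counts are descriptions. Described mouse by mouse were members with an unadjusted p under 0.05, those above background with groups at least 0.1 apart, those spanning 1.5 or more in HoxA9AA/Meis1, and a fixed set of leukocyte integrins and ligands. Of the 4 pathway lists up to 4 genes with the smallest p are given. Ern1, Tex2, Snord104, Flt1, Flt3, Fut7, Ilk, Cd44, Nbeal2, F2rl2, Pf4, Thbd, Ppbp, Nfe2, Gp9, Gp5 and Tubb1, and the neighbour comparison, were chosen after values were seen. Replicate numbers were not used as pairs in the main fit, and whether they pair the mice is not known. Figures were drawn with matplotlib 3.10.9.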

Additional observations from a re-analysis of the deposited data

How the results depend on the processing

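No adhesion gene described mouse by mouse passed the adjusted threshold under any alternative, which were 16 settings at most for each of 22 genes. Of 347 such differences 326 kept their sign and 21 turned. Itgb3, Icam2, Pecam1, Vcam1, Itga4, Itga5, Itgal, Itgam, Itgav, Itgb1 and F11r kept theirs throughout. Over all genes the count called was 0 with all 6 arrays under every setting and between 0 and 48 when 1 array was left out, with 48 without HoxA9AA replicate 2 and 1 without HoxA9wt replicate 3. Leaving out 1 array gave 3 to 7 adhesion genes with an unadjusted p under 0.05 (7 without HoxA9AA replicate 3), and a median difference over the adhesion genes of 0.0067 to 0.0542 (lowest without HoxA9wt replicate 1). The share of all genes with an unadjusted p under 0.05 was taken for the main fit only (6.74%, limma). Counts of adhesion genes under the other fits, the replicate block among them, thus have no share of all genes to be set against. The count of adhesion genes with a higher mean was 19 to 23 when 1 array was left out (19 without HoxA9wt replicate 1, 20 without HoxA9AA replicate 2), 11 when genes under the median of all probe sets were left out and 14 when genes not above background on 3 arrays were left out, since fewer genes were tested. The sign turned for Itga2b (0.015 after median centring) and for Itgb2 (0.0278 after quantile normalization, 0.0117 after median centring and 0.1223 with array weights). The sign also turned when 1 array was left out for Itga1 (−2.08 to 0.15), Itga2b (−0.0683 to 0.0283), Itga6 (−1.08 to 0.40), Itga9 (−0.0033 to 0.85), Itgax (−0.23 to 0.50), Itgb2 (−0.13 to 0.17), Itgb2l (−0.20 to 0.61), Itgb7 (−0.535 to 0.015), Sele (−0.70 to 0.705), Selplg (−0.02 to 0.255) and Icam1 (−0.18 to 0.20). The cause of these turns was not tested. With the replicate number as a block, 4 adhesion genes again had an unadjusted p under 0.05 (limma), with Vcam1 in place of Itga4, and the median difference was again 0.05. Same-numbered mice deviated from their group means with correlations of −0.21, −0.10 and −0.01. These values show no pairing by number but cannot exclude that same-numbered mice were handled together. Leaving out the adhesion genes of chromosome 2, a choice made after seeing the data, left 33 genes in the main fit. Of these 33 genes, 22 had a higher mean and 11 a lower one, against 52.7% of all genes with a higher mean. An unadjusted p under 0.05 was found for 3 of the 33, against 6.74% of all genes (limma). Their median difference was 0.06.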

Other observations

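Adhesion molecules outside the families above also differed between single mice. Of 29 measured genes of this kind 17 (58.6%) had a higher mean in HoxA9AA/Meis1, against 52.7% of all genes. At an unadjusted p under 0.05 there were 2 higher (6.9%, against 4.15% of all genes) and 1 lower (3.45%, against 2.59%). Cd63, a tetraspanin of granule membranes that associates with integrins, measured 9.65, 9.28 and 8.13 in HoxA9wt/Meis1 and 10.44, 9.56 and 10.79 in HoxA9AA/Meis1 (difference 1.24 ± 0.47, SE, adjusted p = 0.731, limma). The groups overlapped through HoxA9AA replicate 2. Jaml, a junction molecule of myeloid cells, measured 7.11, 8.23 and 8.19 against 6.84, 7.47 and 6.50 (difference −0.91), and Nectin2 differed by 0.28 near background. Alcam measured 10.58, 9.35 and 9.74 against 8.66, 9.45 and 6.57, and its lowest mouse, HoxA9AA replicate 3, was also the lowest for the integrin chain Itga1. The hyaluronan receptor gene Cd44, on chromosome 2 like Itga4, Itga6 and Itgav, measured 10.68, 10.29 and 10.43 against 9.08, 10.42 and 10.13, lowest in HoxA9AA replicate 1. The neighbours of Cd44, and those of Thbd, Thbs1 and Apbb1ip on the same chromosome, were not examined.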
